A study of Mus musculus with 59 samples.

Results

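A set of 10 genes that mark astrocytes was followed through 59 single mouse cells: Gfap, Aqp4, Aldh1l1, Slc1a2, Slc1a3, Gja1, Gjb6, S100b, Glul and Fgfr3. They were chosen by symbol, all 10 were measured, and they are 10 of the 20689 genes in the expression table. The question was whether astrocyte genes are found as a set, or one at a time, in cells that also hold the neuronal genes Snap25 and Syt1. The labels call the cells chemical-induced neurons, and the study is about making neurons from astrocytes in the living brain with chemicals. Each cell was patched with a glass pipette, its content was drawn out, and 1 RNA-seq library was made from it. All 59 cells belong to 1 group with an age label of 12 weeks. The labels name no animal, no dose and no reporter gene, and control neurons, astrocytes and untreated cells were not analysed here. The cells therefore count as 1 sample, every share below describes these cells only, and no p-value was computed.

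Astrocytes surround synapses and blood vessels. They take up the transmitter glutamate through the transporters encoded by Slc1a2 (GLT-1) and Slc1a3 (GLAST), and turn it into glutamine with glutamine synthetase, the product of Glul. They are joined into networks by gap junctions made of connexin 43 (Gja1) and connexin 30 (Gjb6), and carry the water channel aquaporin 4 (Aqp4) on their endfeet. Gfap encodes their intermediate filament, S100b a calcium-binding protein, Aldh1l1 a folate enzyme and Fgfr3 a receptor for fibroblast growth factors. Glul and S100b are also expressed by oligodendrocytes, so the other 8 genes are described as a group of their own below.

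Promoter sequences are given for the genes on which the contrast in the results turns. The levels of Slc1a2 and Slc1a3 varied together over cells, and those of S100b and Glul varied separately from them. Detection showed no such contrast, since Slc1a2 was found with Slc1a3 in 31 cells, with S100b in 32 and with Glul in 39. For each gene the 250 bases before the RefSeq start (GRCm38.p6) are given 5′ to 3′ on the gene's own strand. Capitals mark matches, on either strand, to TATAAA (the TATA box), TTGGCA (a half-site of nuclear factor I), ACAAAG or ACAATG (SOX sites) and TTCNNNGAA (a STAT site). The palindromic nuclear factor I motif, searched too, can overlap the half-site.
Slc1a2 (chr2:102706188-102706437, plus strand): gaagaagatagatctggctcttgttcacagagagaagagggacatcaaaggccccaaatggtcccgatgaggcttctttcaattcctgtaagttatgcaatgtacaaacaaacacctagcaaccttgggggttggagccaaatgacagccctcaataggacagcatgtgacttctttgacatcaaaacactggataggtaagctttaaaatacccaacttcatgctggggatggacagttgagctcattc
Slc1a3 (chr15:8710808-8711057, minus strand): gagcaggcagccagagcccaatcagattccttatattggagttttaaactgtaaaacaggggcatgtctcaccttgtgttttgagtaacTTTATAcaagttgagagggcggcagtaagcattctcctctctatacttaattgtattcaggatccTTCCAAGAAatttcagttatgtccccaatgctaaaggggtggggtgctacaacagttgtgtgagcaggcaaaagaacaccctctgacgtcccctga
S100b (chr10:76253586-76253835, plus strand): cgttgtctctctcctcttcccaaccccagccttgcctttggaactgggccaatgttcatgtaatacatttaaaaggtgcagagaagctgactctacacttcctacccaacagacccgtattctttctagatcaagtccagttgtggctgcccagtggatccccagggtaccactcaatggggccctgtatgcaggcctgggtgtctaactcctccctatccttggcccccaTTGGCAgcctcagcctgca
Glul (chr1:153899679-153899928, plus strand): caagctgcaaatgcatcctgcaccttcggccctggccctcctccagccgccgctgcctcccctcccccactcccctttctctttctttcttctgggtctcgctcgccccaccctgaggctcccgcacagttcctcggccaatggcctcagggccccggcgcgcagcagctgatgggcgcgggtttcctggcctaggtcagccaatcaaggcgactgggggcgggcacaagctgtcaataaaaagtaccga

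Slc1a3 held 1 TATA box match and 1 STAT match, S100b held 1 half-site of nuclear factor I, and Slc1a2 and Glul held none. Over 32851 mouse promoters of this length, 12.4% held TATAAA, 12.3% TTGGCA, 16.5% ACAAAG, 10.7% ACAATG, 7.02% TTCNNNGAA and 0.0365% the palindrome. Promoters of 9 of the 10 members were described, with that of Aqp4 left out, and none of Gfap, Aldh1l1, Gja1, Gjb6 and Fgfr3 had a match. The Glul sequence held 15 CpG dinucleotides, against 2 in S100b, 2 in Slc1a3 and 1 in Slc1a2, where the median promoter held 6. The windows of Slc1a2, Gfap and Aldh1l1, and a window of Fgfr3, lie inside the gene spans given below. They precede a start within the gene and not its outermost end. A match or its absence describes these letters only.

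Detection of the 10 genes ran from nearly every cell to fewer than 1 in 5. Values are FPKM, which is scaled to gene length and to the fragments of each library, and detection in a cell means a value of at least 1 FPKM. Of the 10 members, 5 reached detection in 50% of the cells or more, compared with 11.7% of all genes. These were Glul, S100b, Slc1a2, Slc1a3 and Gfap. The other 5, Gja1, Aqp4, Gjb6, Fgfr3 and Aldh1l1, were at 0 in more than 50% of the cells, and their median level was 0. Each of the members except Aldh1l1, so 9 of 10, was found in at least 12 cells, compared with 38.9% of all genes, and only 0.59% of all genes were found as widely as Glul. Intervals given with shares are 95% Clopper-Pearson (exact) ones, for the counting of cells alone and not for differences between animals.

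**Figure D1:**
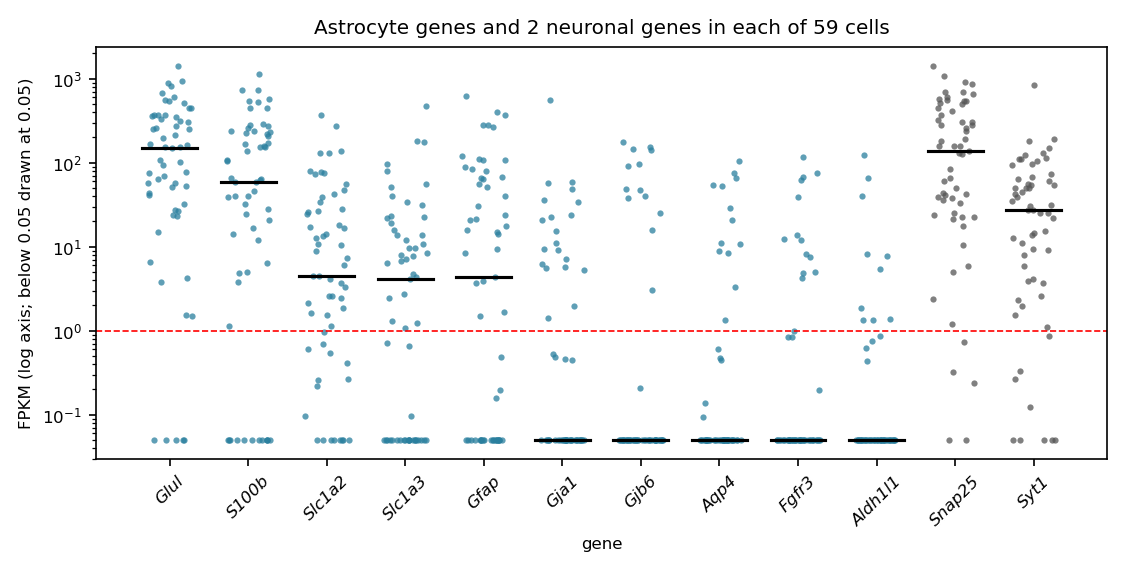
FPKM of the 10 astrocyte genes (blue) and of Snap25 and Syt1 (grey) on a log axis, 1 point per cell, with values below 0.05 drawn at 0.05. The black bar is the median over 59 cells and the dashed line the detection threshold of 1; the medians of Gja1, Gjb6, Aqp4, Fgfr3 and Aldh1l1 lie at 0, while that of Glul is 149 FPKM.

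Sequencing depth limits these calls. The estimated number of fragments per cell had a median of 912977, with a range of 29044 to 2950443, and the number of genes detected had a median of 3984, with a range of 475 to 10310. In a cell of median depth, an FPKM of 1 stands for about 1.35 fragments of the short S100b transcript and about 12.0 fragments of the long Slc1a2 transcript. The label of neuron was checked with 10 neuronal markers, of which all 10 reached 50% of the cells. So did 9 of 10 oligodendrocyte markers and 7 of 11 microglia markers, so the check does not tell neurons from other cell types. Snap25, which encodes a membrane fusion protein of synaptic vesicles, was detected in 54 cells, and Syt1, the calcium sensor of vesicle release, in 50.

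Among the genes of glutamate handling, the synthetase was found most widely and the transporters less so. Glul (chromosome 1, 153899944 to 153909723, plus strand) was found in 54 cells (91.5%, interval 81.3 to 97.2%), and ran from 0 to 1417 FPKM with a median of 149 FPKM. Slc1a2 (chromosome 2, 102658659 to 102790784, plus strand) was detected in 42 cells (71.2%, interval 57.9 to 82.2%), at a median of 4.46 and up to 366 FPKM. Slc1a3 (chromosome 15, 8634124 to 8710764, minus strand) was detected in 35 cells (59.3%, interval 45.7 to 71.9%), at a median of 4.12 and up to 468 FPKM. The intervals of the 2 transporters overlap, while the interval of Slc1a3 lies below that of Glul. These genes were scored in the same cells, so separate intervals do not measure the difference between them. Cell 22 held the highest level of both transporters. The next highest were cell 41 for Slc1a2, at 271 FPKM, and cell 46 for Slc1a3, at 181 FPKM.

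Slc1a2 had traces in more cells than the threshold counts. In 52 cells it was above 0, and in 10 of those it lay under an FPKM of 1. Both transporters were detected in 31 cells, Slc1a2 without Slc1a3 in 11, Slc1a3 without Slc1a2 in 4, and at least 1 of them in 46. Glul together with a transporter was found in 43 cells (72.9%, interval 59.7 to 83.6%). Other members of the transporter family were rarer. Slc1a1, the neuronal glutamate transporter, was detected in 14 cells, the neutral amino acid transporter gene Slc1a4 in 12, and Slc1a6, known from Purkinje cells, in 5. Among other genes of the glutamine cycle, Glud1 (glutamate dehydrogenase) was detected in 42 cells at a median of 23.1 FPKM. Slc38a3, which exports glutamine from astrocytes, was detected in 10 cells and Gls2 in 7.

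S100b and Gfap were both found in most cells, at different levels. S100b (chromosome 10, 76253853 to 76261159, plus strand) was detected in 47 cells (79.7%, interval 67.2 to 89.0%), at a median of 59.3 and up to 1147 FPKM. No cell had S100b above 0 and under the threshold. Its highest value came from cell 27, which had only 475 genes detected. Gfap (chromosome 11, 102887336 to 102900912, minus strand) was found in 34 cells (57.6%, interval 44.1 to 70.4%), and had quartiles of 0 and 64.3, a median of 4.33 and a highest value of 628 FPKM. In the cells where Gfap was detected its median was 53.6 FPKM, against 15.4 for Slc1a2 and 11.9 for Slc1a3 in theirs. At 5 FPKM or more, Gfap and Slc1a2 were each found in 29 cells (49.2%), and Slc1a2 had more cells at low values beneath that.

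The relatives of these 2 genes included neuronal and more widely expressed ones. Among 6 intermediate filament genes, the neurofilament genes Nefl and Nefm were detected in 45 and 42 cells. Vim (vimentin), which reactive astrocytes raise, was detected in 15 cells and Nes (nestin) in 2. Among 6 S100 genes, S100b included, 5 reached 50% of the cells, and S100a1, at a median of 83.5 FPKM, was detected in 38 cells.

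The connexin genes were detected in a minority of cells. Gja1 (chromosome 10, 56377330 to 56402513, plus strand) was found in 20 cells (33.9%, interval 22.1 to 47.4%), and its lowest value and median were 0 and its highest 550 FPKM, in cell 47. The second highest value, in cell 50, was 59.4 FPKM, so 1 cell lay far above the rest. Gjb6 (chromosome 14, 57123303 to 57133611, minus strand) was detected in 13 cells (22.0%, interval 12.3 to 34.7%), up to 175 FPKM. Where it was detected, Gjb6 had a median of 48.2 FPKM, against 13.2 FPKM for Gja1. Both connexins were found together in 8 cells, Gja1 without Gjb6 in 12 and Gjb6 without Gja1 in 5. Among connexin genes of oligodendrocytes, Gjc3 was detected in 30 cells and Gjb1 in 21, beside Gja1 in 20. Gjb2, a further astrocyte connexin gene, was detected in 4 cells, and the neuronal connexin gene Gjd2 in 2.

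Aqp4, Fgfr3 and Aldh1l1 completed the group of rarely detected members. Aqp4 (chromosome 18, 15389496 to 15410982, minus strand) was detected in 13 cells (22.0%, interval 12.3 to 34.7%), up to 106 FPKM in cell 47. Fgfr3 (chromosome 5, 33721674 to 33737068, plus strand) was detected in 13 cells (22.0%), up to 117 FPKM in cell 42. Aldh1l1 (chromosome 6, 90486427 to 90600203, plus strand) was detected in 10 cells (16.9%, interval 8.44 to 29.0%), up to 124 FPKM in cell 47. Only 3 of these 10 cells had Aldh1l1 at more than 8.13 FPKM, namely cells 47, 22 and 35. The intervals of all 5 rarely detected members, Gja1 included, overlap one another.

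Some genes that work beside Aqp4 in water and potassium handling were found more often than Aqp4 itself. Atp1b2 was detected in 27 cells, the potassium channel gene Kcnj10 in 25, Dag1 in 18 and Mlc1 in 16, while Kcnj16 was detected in 4. Among the growth factor receptors, Fgfr2 was detected in 25 cells and Fgfr1 in 15, beside Fgfr3 in 13 and Fgfr4 in 3. Among the aldehyde dehydrogenase genes, Aldh2 was detected in 20 cells, Aldh1a1 in 15, the mitochondrial relative Aldh1l2 in 8 and Aldh1a2 in 1.

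The number of members per cell ran from none to all, although no cell had exactly 8 of the 10 or exactly 6 of the 8. The median was 5 of the 10 members, and at least 5 were detected in 32 cells (54.2%, interval 40.8 to 67.3%). Counted over the 8 members other than Glul and S100b, the median was 3. Of these 8, none was detected in 8 cells, exactly 1 in 13, exactly 2 in 3, exactly 3 in 12, 4 in 7, 5 in 9, 7 in 4 and all 8 in 3. The 13 cells with a single member held Slc1a2 in 6, Gfap in 4, Slc1a3 in 2 and Aldh1l1 in 1. Aqp4, Gja1, Gjb6 and Fgfr3 were never the only one of the 8 to be detected.

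**Figure D2:**
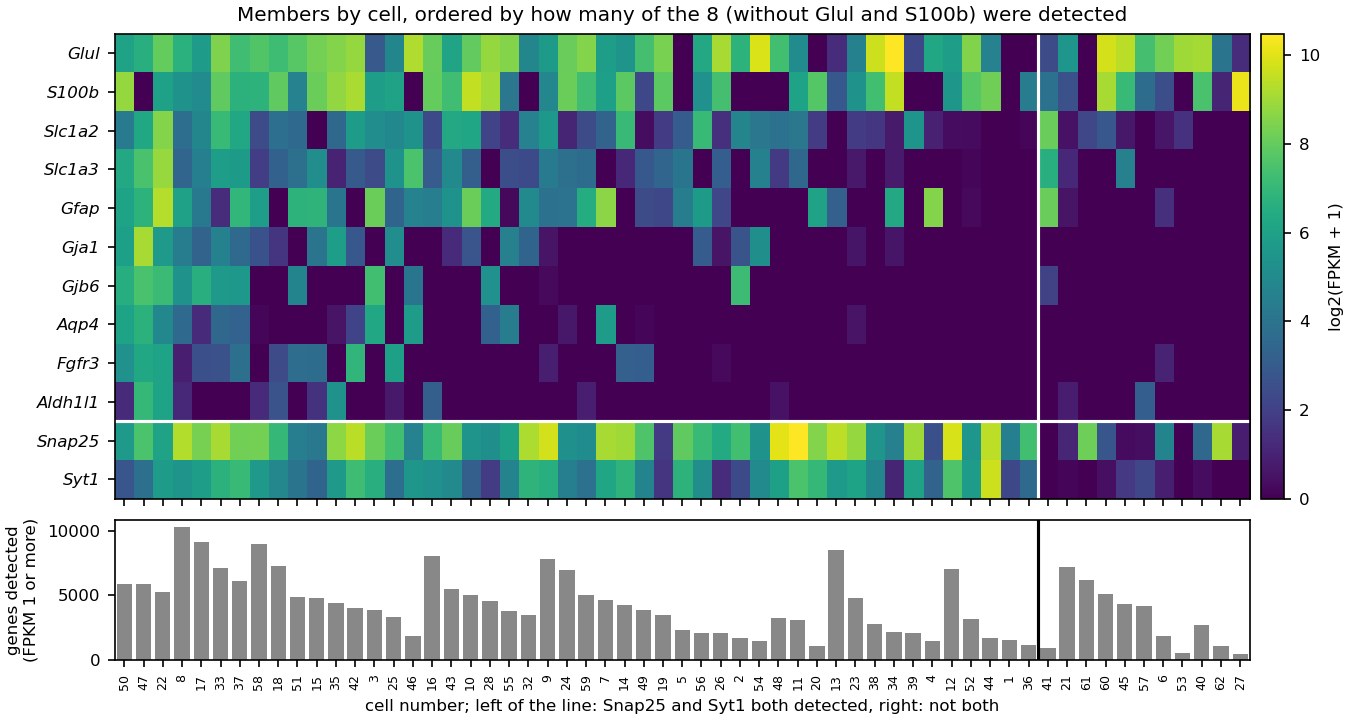
log2(FPKM + 1) of each member in each of the 59 cells (columns), with the 48 cells that have both Snap25 and Syt1 to the left of the line and the other 11 to the right, each ordered by the number of the 8 members detected; the lower panel gives the genes detected per cell. Glul and S100b are bright in columns at both ends, whereas Gja1, Gjb6, Aqp4, Fgfr3 and Aldh1l1 are bright mainly at the left.

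Most cells with both neuronal genes also held astrocyte genes. Snap25 and Syt1 were both detected in 48 cells, in which the genes detected had a median of 4125.5 per cell. At least 1 of the 8 members was detected in 43 of these 48 cells (89.6%, interval 77.3 to 96.5%), and at least 4 in 22 (45.8%, interval 31.4 to 60.8%). Between 1 and 3 were detected in 21 cells, and none in 5. Singly, Slc1a2 was found in 38 of the 48 cells, Gfap and Slc1a3 in 32 each, Gja1 in 20, Aqp4 and Fgfr3 in 13 each, Gjb6 in 12 and Aldh1l1 in 9. Glul was found in 44 and S100b in 38. Gfap, Slc1a2 and Slc1a3 were detected together in 23 of the 48 cells. At an FPKM of 5 or more for the members, 15 of the 48 cells held at least 4 of the 8 and 41 held at least 1.

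In the 11 cells where Snap25 and Syt1 were not both detected, the 8 members were found singly or not at all in 10. At least 1 of these 2 genes was detected in 56 cells and both in 48, so most of the 11 held 1 of them. Cells 62 and 61 had 550 and 283 FPKM of Snap25, with Syt1 at 0, while cells 27, 41 and 53 had neither detected. Of the 10 neuronal markers, the 11 cells had a median of 3 (0 to 8), against 9 (4 to 10) in the 48. The 11 are therefore not a group without neuronal genes. At least 2 of the 8 were detected in 37 of the 48 cells with both neuronal genes (77.1%, interval 62.7 to 88.0%), against 1 of the 11 cells without both (9.09%, interval 0.23 to 41.3%). The gap was smaller for at least 1 of the 8, at 43 of the 48 cells (89.6%) and 8 of the 11 (72.7%, interval 39.0 to 94.0%). At least 4 were detected in 22 of the 48 and in 1 of the 11. The 11 cells had fewer genes detected, with a median of 2678 and a range of 475 to 7219. Among cells with at least 2000 genes, at least 2 of the 8 were detected in 33 of 40 cells with both neuronal genes and in 0 of 6 cells without both, where the interval reaches 45.9%. At least 1 was detected in 38 of those 40 cells and in 5 of those 6. The cells come from 1 sample, so these differences were described and not tested. Glul was detected in 44 of the 48 cells and in 10 of the 11, and S100b in 38 of the 48 and in 9 of the 11. The 1 exception among the 11 was cell 41, with 271 FPKM of Slc1a2, 269 of Gfap, 97.5 of Slc1a3 and 3.08 of Gjb6, where Snap25, Syt1 and all 10 neuronal markers were undetected and 907 genes were detected.

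**Figure D3:**
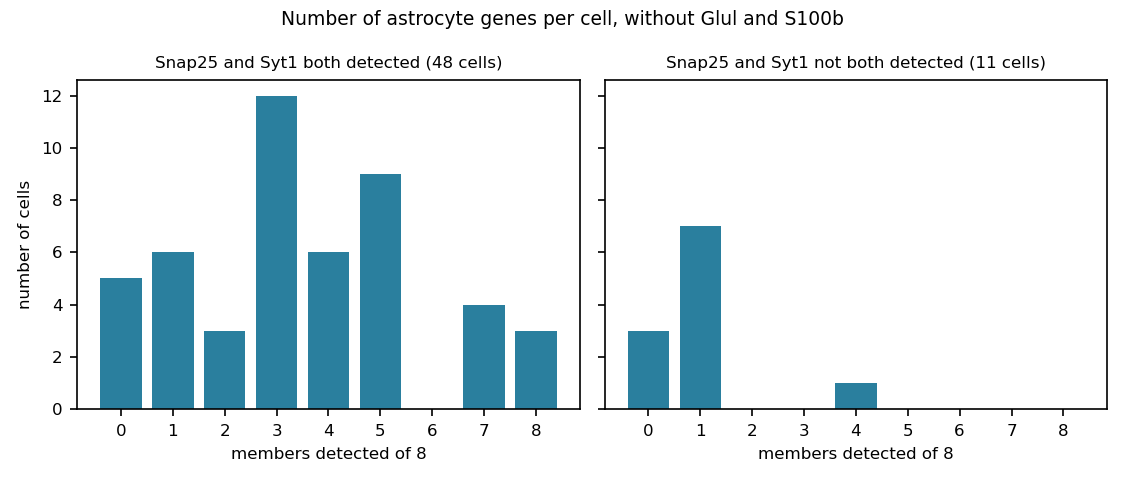
Number of cells (y axis) by how many of the 8 members other than Glul and S100b were detected (x axis), in the 48 cells with both Snap25 and Syt1 (left) and in the 11 others (right). The left bars spread from 0 to 8 members, while 10 of the 11 cells on the right have 0 or 1.

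The cells with the fullest astrocyte set all had neuronal genes. All 8 members were detected in cells 22, 47 and 50, and 7 of the 8 in cells 8, 17, 33 and 37. All 7 of these cells had 10 of 10 neuronal markers detected, and between 5228 and 10310 genes. Cell 22 had 628 FPKM of Gfap, 468 of Slc1a3, 366 of Slc1a2 and 141 of Gjb6, beside 65.0 of Snap25 and 53.7 of Syt1. Cell 47 had 550 FPKM of Gja1, 174 of Slc1a3 and 124 of Aldh1l1, beside 183 of Snap25 and 13.7 of Syt1, and its S100b was listed at 0. Cell 50 had 91.3 FPKM of Gjb6 and 66.3 of Aqp4, beside 49.9 of Snap25 and 5.92 of Syt1. Within the 48 cells, the Gfap level was above the Snap25 level in 11 and the Glul level above it in 19.

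At the other end, 5 cells had both neuronal genes and none of the 8 members. Cell 12 had the most genes of the 5, with 7075 genes detected, about 1784887 fragments, 921 FPKM of Snap25 and 194 of Syt1. Its Slc1a2 was at 0.256 FPKM and the other 7 members were at 0, while Glul was at 57.9 and S100b at 46.2 FPKM. Its fragment number is less certain than those of other cells, since 64.1% of its low values came out as whole fragments, the lowest share of the 59 cells. Cell 52, with 2413928 fragments, had Gfap at 0.196, Slc1a2 at 0.221 and Slc1a3 at 0.097 FPKM. Cells 1, 36 and 44 had 1554, 1139 and 1683 genes detected, and cell 1 had none of the 10 members.

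Markers of other glia were present in the same cells. Of 10 oligodendrocyte markers, the 48 cells with both neuronal genes had between 1 and 10 detected, with a median of 8.5 and a summed level between 14.6 and 29150 FPKM (median 2147). The 11 other cells had between 1 and 10, with a median of 8 and a summed level between 82.8 and 20976 FPKM (median 9032). Of 11 microglia markers, the 48 cells had a median of 6.5 (0 to 11) and a median summed level of 996 FPKM (0 to 23999). The 11 cells had a median of 2 microglia markers (0 to 11) and a median summed level of 118 FPKM (0 to 35805). No oligodendrocyte or microglia marker was undetected in all 48 cells. Of the 22 cells with both neuronal genes and at least 4 of the 8 members, 20 (90.9%) had at least 50% of the oligodendrocyte markers, 18 (81.8%) at least 50% of the microglia markers, and 1, cell 46, neither. Of the other 26 cells with both neuronal genes, 18 had at least 50% of the oligodendrocyte markers (69.2%) and 9 at least 50% of the microglia markers (34.6%). Cell 22 had 6 of the oligodendrocyte markers and 0 of the microglia markers. The part of these other cell types in the astrocyte signal was not tested.

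Over the 59 cells the 8 members varied together, and Glul and S100b varied apart from them. Levels were compared as Spearman rank correlations, which describe these cells and share library and depth effects. All 28 pairs among the 8 members were positive, with a median of 0.381 and a range of 0.0817 to 0.596. The median over all pairs of the 8042 genes detected in at least 12 cells was 0.222, with quartiles of 0.123 and 0.317. A positive value was therefore usual for any pair, and 12.8% of those pairs reached 0.381 or more. The highest pairs were Aqp4 with Gjb6 (0.596), Slc1a2 with Slc1a3 (0.559) and Slc1a3 with Fgfr3 (0.536). Aqp4 and Gjb6 were detected together in 10 cells, which is 76.9% of the cells of either gene. All 13 cells with Aqp4 and all 13 cells with Gjb6 also had Slc1a2, and all 13 cells with Fgfr3 also had Slc1a3. Over all 59 cells, Slc1a2 was detected in 42 and Slc1a3 in 35. Glul, detected in 54, was likewise found in every cell with Aqp4, Gjb6 or Fgfr3. Such overlap in detection is therefore not particular to the 8.

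Aldh1l1 was the loosest of the 8, at 0.0817 with Slc1a2 and 0.124 with Gjb6. Members detected in few cells have many tied zeros, so weak values carry little. The number of genes detected per cell had correlations between 0.233 and 0.428 with each of the 8. With that number held fixed in a partial correlation, the median of the 28 pairs was 0.320 and 27 pairs were positive. Partial correlations over all pairs of genes were not computed. Without cells 22, 47 and 50 the median was 0.288, with 25 positive, a fall that is built in because those cells were picked for having all 8.

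**Figure D4:**
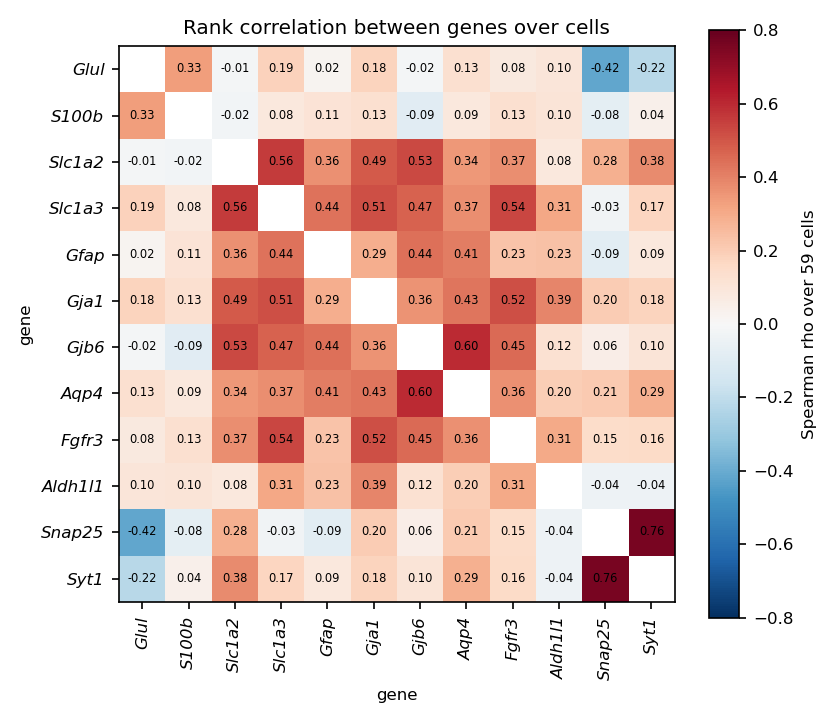
Spearman correlation over 59 cells for each pair of genes, from blue (negative) to red (positive). The block of 8 genes from Slc1a2 to Aldh1l1 is positive throughout, but Aldh1l1 is pale against Slc1a2 (0.0817) and Gjb6 (0.124). Glul and S100b are pale against that block and red with each other, and Glul is blue against Snap25.

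The 16 pairs of Glul or S100b with the 8 members had a median of 0.092, with a range of -0.0934 to 0.187. Glul and S100b had a correlation of 0.333 with each other, which was 0.640 in the 46 cells with at least 2000 genes. Against the mean level of 10 oligodendrocyte markers, Glul had a correlation of 0.470 and S100b of 0.302, while the 8 members ranged from -0.0788 to 0.141. With the number of genes detected held fixed, the values were 0.467 for Glul and 0.260 for S100b. Against the mean level of the 11 microglia markers the members were not set apart in this way, with S100b at 0.313, Slc1a3 at 0.307, Gfap at 0.261 and Glul at 0.109. Of the 54 cells with Glul, 10 had fewer than 50% of the oligodendrocyte markers, and of the 47 cells with S100b, 8 had fewer. These are 18.5% and 17.0%, near the 13 of all 59 cells (22.0%) that had fewer. The differences between these correlations were not tested.

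The members also differed in how they varied with the neuronal genes. Glul had a correlation of -0.417 with Snap25 and -0.220 with Syt1. Slc1a2 had 0.283 with Snap25 and 0.379 with Syt1, and Gfap had -0.087 with Snap25 and 0.0871 with Syt1. Against the mean of the 10 neuronal markers, Slc1a2 was at 0.426, Aqp4 at 0.371 and Gja1 at 0.299, while Gfap was at 0.055 and Glul at -0.257. With the number of genes detected held fixed, the values were 0.370 for Slc1a2, 0.246 for Aqp4, 0.186 for Gja1, -0.0712 for Gfap and -0.324 for Glul. Snap25 and Syt1 had a correlation of 0.759 with each other.

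The genes whose levels over cells were most like those of the members included further genes of astrocytes. Among genes detected in at least 12 cells, Prdx6, an antioxidant peroxiredoxin, came first against the mean rank of all 10 members at 0.679, followed by the small nucleolar RNA host gene Snhg12 (0.675) and Slc4a4, a sodium bicarbonate cotransporter gene (0.655). Also among the 10 were Tcf7l2 (0.630), AW047730 (0.615), Ndrg2 (0.598), Sfxn5 (0.593), Ntsr2 (0.589) and Cdc73 (0.571). Singly, Gja1 had Slc1a4 (0.615) and Mlc1 (0.579) among the 3 genes most like it. Slc1a2 had the cell adhesion gene Lsamp (0.597) and S1pr1 (0.575) among its 3. Slc1a3 was most like Rgcc (0.613), Ntsr2 (0.600) and Brwd1 (0.585), and Gjb6 was most like Ntsr2 (0.663), Cyr61 (0.647) and Aqp4 (0.596).

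The remaining members had other neighbours. Aqp4 was most like Rnf157 (0.639), Acot13 (0.617) and Gjb6, and Fgfr3 was most like Mlc1 (0.640), AW047730 (0.637) and Gsta4 (0.625). Gfap was most like Ndrg2 (0.549), Gatc (0.546) and Snhg12 (0.496), and Aldh1l1 was most like Riok1 (0.575), Nim1k (0.572) and Cdkn2aip (0.572). Glul was most like the cytokine gene Il33 (0.626), Gng11 (0.555) and Pla2g16 (0.539), and S100b was most like the actin-severing gene Gsn (0.550), Scp2 (0.548) and Luc7l3 (0.535). The 3 genes named for Glul and the 3 named for S100b were among the 3 of no other member. The same held for the 3 genes of Gfap, of Aldh1l1 and of Aqp4, so it does not set Glul and S100b apart.

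Other genes of astrocytes were scattered in the same way. Of 21 further astrocyte genes measured, 7 reached 50% of the cells, and the median share over the 21 was 35.6%. Mt3 (metallothionein 3) was detected in 50 cells at a median of 224 FPKM and Aldoc (aldolase C) in 43 at 97.6 FPKM. Ntsr2 and Acsbg1 were detected in 23 cells each, Slc25a18 in 11, Slc6a11 (a GABA transporter of astrocytes) in 9 and Slc7a11 in 3. Against the mean rank of the 8 members, the 14 of these genes detected in at least 12 cells had a median correlation of 0.447, where all 8033 genes of that kind had a median of 0.211. Apoe, shared with other glia, was at 0.249 and Ntsr2 at 0.667.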

How the data were processed

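The values deposited by the authors are FPKM (fragments scaled by exon length and library total), in 1 table with 1 column per cell, matched to the labels by cell number. Per the submitters' processing notes, STAR 2.5.3a, featureCounts 1.5.3 and GRCm38 were used. Strandedness and the annotation release were not given in the sources used here, so reads of antisense or overlapping genes cannot be told apart. The 51 ERCC spike-ins were left out, which leaves 20689 genes.

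Depth was estimated from the FPKM. Within a cell, FPKM times exon length is a multiple of what 1 fragment is worth, taken as the value shared by most genes. GENCODE M21 gave a length for 19358 genes (93.6%). A median of 73.3% of values up to 20 fragments came out whole within 0.02 fragments, so no count model was applied. For Aqp4, Gja1 and Gjb6 these lengths gave whole fragments in 5.56%, 0% and 0% of cells with a value, so their fragment numbers are approximate. Gene coordinates are those of GENCODE M21.

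The detection threshold was 1 FPKM, and log2(FPKM + 1) was the log scale. Correlations are Spearman over 59 cells, partial ones with the rank of genes detected removed. Python 3.11.15, scipy 1.17.1 and matplotlib 3.10.9 were used, and the correlation search was tested on simulated data. Members, marker lists, motifs and tests were chosen with earlier results of these data known. Named are the 10 members, Snap25 and Syt1, from each related list the paralogs and those most and least often detected, the 3 genes most like each member and the 10 most like their mean, and the cells with the most and fewest members. The connexin, S100, filament and dehydrogenase genes given beyond these were named after their values were seen. Alternatives were detection at any value above 0 or at 5 FPKM, rescaling to a sum of 1000000 with or without mitochondrial genes, the 46 cells with at least 2000 genes, the 8 members without Glul and S100b, other neuronal definitions, pseudocounts of 0.1 and 10, partial correlation, and no filter on low genes. Added after seeing the data were a threshold of 10 fragments, a limit to the 39 cells that reached 500000 fragments, and correlations without cells 22, 47 and 50. With 1 group, no test between groups was possible. Some genes that the naming rule would select are not reported here.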

Additional observations from a re-analysis of the deposited data

How the results depend on the processing

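Of 127 values under alternatives, 118 stayed within the spread of the value reported and 9 moved. Changes of sign were not checked. That spread was, for a share, its 95% interval, and otherwise the quartiles of a count per cell, or the SD over cells or pairs. For the single correlation of Glul with S100b it was the SD over the 28 pairs of the 8 members. The number of shared genes among the 10 most like the members was judged against a fixed range. At an FPKM of 5 or more, 37.3% of cells had at least 5 of the 10 members and 31.2% of the cells with both neuronal genes had at least 4 of the 8, which follows from the stricter threshold. Counting at least 4 of the 8 members in place of 5 of 10 gave 39.0% of all cells. The median over cells of the mean log2 level of the 10 members was 2.41, and it was 0.72 with a pseudocount of 0.1 and 4.50 with a pseudocount of 10, which the pseudocount itself sets. In cells with at least 2000 genes the median of the 16 pairs with Glul or S100b was 0.0128, and the cause was not tested. The share of cells with both neuronal genes and at least 4 of the 8 ran from 31.2% to 60.4% over all alternatives, and the share with at least 1 ran from 85.4% to 95.8%. Among single genes, Slc1a2 was in 88.1% of cells at any FPKM above 0 and in 49.2% at 5 or more. Of the 10 genes most like the mean of the members, 8 were shared under the partial correlation and 10 without the filter on low genes. No paired analysis was possible because the cells form 1 group. Shallow cells limit what an undetected member means: in 29044 fragments, the lowest depth, a transcript at a low level can be missed.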

Other observations

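Transcription factor genes of astrocytes were detected in part of the cells. Nfix, a nuclear factor I gene, was detected in 42 cells at a median of 7.03 FPKM and Zbtb20 in 37 at 3.62 FPKM. Id4 was detected in 26 cells, Sox9, a factor of glial fate, in 23, Nfia in 21 and Nfib in 20, while Hes5 was detected in 4 and Lhx2 in 3. Against the mean rank of the 8 members other than Glul and S100b, Sox9 had a correlation of 0.508 and Nfix of 0.142, and the 6 factors detected in at least 12 cells had a median of 0.355.

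Of 13 measured genes of a list that reactive astrocytes raise, which did not hold Gfap or Vim, H2-D1, a class I antigen-presenting gene of many cell types, was the only one to reach 50% of cells, in 40, where 11.7% of all genes did. Serpina3n was detected in 29 cells with values up to 2871 FPKM. The others except Lcn2 were detected in 2 to 8 cells each. Lcn2, an acute marker of reactive astrocytes, was detected in 1 cell at 1.17 FPKM. Against the mean rank of the 8 members, Serpina3n had a correlation of -0.200 and H2-D1 of -0.111, where all 8033 genes had a median of 0.211. Cxcl10, detected in 6 cells, was at 0.329.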
